A study of Homo sapiens with 9 samples.

Results

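Amino acid transporters of the SLC1, SLC3, SLC6, SLC7, SLC36, SLC38 and SLC43 families were followed across 9 Affymetrix expression arrays of the human embryonic stem cell line H9. Members were chosen by gene symbol alone, from probe sets that the array annotation ties to 1 gene. They were 60 probe sets for 58 genes, among 18417 genes measured by such probe sets. SLC43A3, which lies on no single-symbol probe set, is not analysed here. Where a gene had several probe sets, the one with the highest mean over the 9 arrays stood for it.

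All cells were an H9 derivative, H9-TCF7L1, that carries a TCF7L1 transgene under doxycycline control. Untreated cells were in mTeSR1, a medium that maintains pluripotency. PS medium cells had 48 h in a medium for primitive streak differentiation, and PS medium plus Dox cells had the same 48 h together with 48 h of doxycycline at 1 ug/ml. Each group had 3 arrays, and no label states that these were separate cultures, so p-values reflect array-to-array spread that may be only technical. The design text gives the aim as a search for possible target genes of TCF7L1, a TCF/LEF protein that binds DNA and acts mainly as a repressor of Wnt targets. No group had doxycycline without the transgene or in mTeSR1, so effects of the drug and of TCF7L1 cannot be told apart. The labels do not give the make-up of PS medium, and effects of the medium and of differentiation cannot be told apart either.

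Amino acid carriers are membrane proteins that set which amino acids a cell takes up, exchanges or releases. SLC7 cationic carriers bring in arginine and lysine on their own, whereas SLC7 light subunits reach the surface only when bound to a heavy subunit, SLC3A2 or SLC3A1, and then exchange one amino acid for another. System A carriers of the SLC38 family use the sodium gradient to load small neutral amino acids such as glutamine and alanine, and exchangers such as LAT1 trade glutamine for leucine, a stimulus of the growth kinase mTORC1. Human pluripotent cells are known for a high demand for methionine and glutamine.

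TCF7L1 itself read 3718, 3878 and 3572 in the untreated arrays, 1275, 1542 and 1611 with PS medium alone, and 13100.2, 12433 and 2699 with doxycycline added. It was 5.24-fold higher with doxycycline than in PS medium alone (adjusted p = 0.00464). Against untreated cells TCF7L1 was 2.05-fold higher with doxycycline (adjusted p = 0.124) and 2.55-fold lower in PS medium (adjusted p = 0.0502), neither under 0.05. Dox replicate 3 lay below all untreated arrays. The counts against PS medium and some gene values are therefore also given without Dox replicate 3. Most doxycycline values are given with all 9 arrays only. Intensities are linear PLIER values, and array medians ran from 200.4 to 216. Summed intensity of 7 primitive streak markers was 1380 to 1514 in untreated cells, 71639 to 81747 in PS medium and 13274 to 20809 with doxycycline. For 6 trophectoderm and amnion markers the sums were 1958 to 2242, 16276 to 16917 and 27129 to 29344, and for 9 pluripotency markers 38217 to 40094, 26762 to 29944 and 32653 to 34055. Neural sums over 5 genes overlapped between the groups, at 1772 to 2027, 1702 to 2120 and 1972 to 2383. Linear sums follow the brightest genes and can hide members that moved apart. In the same group order, neural PAX6 had means of 16.6, 62.1 and 188.7, and dim MAP2 had 134.4, 15.1 and 109.6. PAX6 passed for doxycycline against untreated (adjusted p = 0.00435). Its differences for PS medium against untreated and doxycycline against PS medium did not pass (adjusted p = 0.178 and 0.0858). For PS medium against untreated, 4 trophectoderm and amnion markers were called higher and 1, KRT7, lower. For doxycycline against PS medium, 3 pluripotency markers were called higher and 1, L1TD1, lower. Of 6 fibroblast markers, COL3A1, DCN, LUM and FAP were dim in all groups, and THY1, which stem cells also express, was the brightest in each group, with list sums of 5211 to 5362, 1896 to 2159 and 1418 to 1757. Marker levels thus moved with the groups, and their part in the transporter results was not tested. In such bulk samples fewer cells of a type and less RNA per cell cannot be told apart.

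Upstream sequence is shown for 5 carriers because SLC38A1, SLC38A2 and SLC38A4 are direct neighbours on chromosome 12 whose RNA fell by 1.3-, 1.21- and 4.81-fold in PS medium, and because SLC43A1 and SLC43A2 moved in opposite directions with doxycycline. Each line is the 250 bases before a gene start of the RefSeq promoter table (GRCh38.p14), read 5′ to 3′ along the gene, which lies on the minus strand in all 5 cases. Capitals mark matches to CTTTGNT, a core of TCF/LEF sites, searched on both strands.
SLC38A4, chr12:46825998-46826247: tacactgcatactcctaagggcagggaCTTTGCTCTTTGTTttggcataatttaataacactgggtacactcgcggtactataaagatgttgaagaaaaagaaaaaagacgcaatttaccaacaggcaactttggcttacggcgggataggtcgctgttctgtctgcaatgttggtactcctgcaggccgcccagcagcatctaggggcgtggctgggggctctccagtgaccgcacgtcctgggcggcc
SLC38A2, chr12:46372774-46373023: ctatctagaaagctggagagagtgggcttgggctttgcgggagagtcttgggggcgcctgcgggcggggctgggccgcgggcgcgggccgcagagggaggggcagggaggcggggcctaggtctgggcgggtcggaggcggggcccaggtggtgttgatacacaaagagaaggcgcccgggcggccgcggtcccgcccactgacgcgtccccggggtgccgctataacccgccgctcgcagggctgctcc
SLC38A1, chr12:46267988-46268237: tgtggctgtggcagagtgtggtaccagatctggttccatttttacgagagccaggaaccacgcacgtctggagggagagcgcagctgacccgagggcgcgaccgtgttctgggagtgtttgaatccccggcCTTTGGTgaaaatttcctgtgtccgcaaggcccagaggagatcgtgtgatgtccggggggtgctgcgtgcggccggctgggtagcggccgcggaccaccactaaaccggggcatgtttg
SLC43A1, chr11:57515703-57515952: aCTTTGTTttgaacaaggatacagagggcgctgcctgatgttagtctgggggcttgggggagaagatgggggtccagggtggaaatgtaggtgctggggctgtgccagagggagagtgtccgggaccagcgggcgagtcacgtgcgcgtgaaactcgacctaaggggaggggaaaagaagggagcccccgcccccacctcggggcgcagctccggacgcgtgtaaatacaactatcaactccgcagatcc
SLC43A2, chr17:1628835-1629084: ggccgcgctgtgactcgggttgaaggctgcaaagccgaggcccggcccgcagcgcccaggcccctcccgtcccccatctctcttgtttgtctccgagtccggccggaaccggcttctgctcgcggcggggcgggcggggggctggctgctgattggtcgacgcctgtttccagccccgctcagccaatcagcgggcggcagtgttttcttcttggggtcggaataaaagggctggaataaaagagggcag

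In the SLC38A4 window a pair of matches, CTTTGCT and CTTTGTT, abut each other, starting at -223 and -216 from the gene start. The SLC38A1 window has CTTTGGT at -119 and the SLC43A1 window CTTTGTT at -249, and these letters are absent from the SLC38A2 and SLC43A2 windows shown. Other listed windows of the same genes differ: AGCAAAG, the same core on the other strand, starts at 0 in another SLC43A2 window, another SLC43A1 window has CTTTGGT at -29, and a second SLC38A1 window has no such match. Promoter windows of 300 bases, which add the first 50 bases of the gene, were listed for 45 of the 58 genes, 67 windows in all. CTTTGNT was in 13 of the 67 (19.4%), against 15.4% of all 35116 listed windows. TGATGNAA, the core of the amino acid response element that ATF4 binds, was in 6 of the 67 (8.96%), against 3.62% of all windows. Those 6 windows belong to SLC1A3, SLC1A4, SLC1A5, SLC3A2, SLC7A1 and SLC38A1. A match describes letters only, and binding was not measured.

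Many carriers gave lower values in PS medium than untreated, led by SLC38A4 and SLC1A3, and SLC7A14 rose most. Of the 58 genes, 20 passed an adjusted p of 0.05 (34.5%), 7 higher and 13 lower, beside 29.8% of all genes, 14.2% higher and 15.7% lower. With a change of at least 1.5-fold, 14 passed (24.1%), 3 higher and 11 lower, beside 12.3% of all genes, 5.96% higher and 6.38% lower. The median log2 difference was -0.06 over the transporters and -0.01 over all genes, since most members lay near 0. Differences are on the scale log2(intensity + 16) after quantile normalization, which understates changes of dim genes, and p-values come from limma fitted to all genes with Benjamini-Hochberg adjustment.

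Adding doxycycline to PS medium raised the cationic carriers SLC7A2 and SLC7A3 and the neutral carrier SLC43A2, and lowered SLC7A14, SLC38A4 and SLC43A1. This comparison called 14 of the 58 genes (24.1%), 7 in each direction, beside 17.4% of all genes, 8.91% higher and 8.44% lower. At 1.5-fold or more there were 7, 3 higher and 4 lower (12.1%), beside 7.71% of all genes, 3.91% higher and 3.80% lower. With the replicate number as a block, which the arrays' shared deviations allow here, 22 transporters passed, 10 higher and 12 lower, and the share of all genes rose as well, to 24.3%. Without Dox replicate 3, the array with the lowest TCF7L1 of its group, 13 passed, 6 higher and 7 lower, beside 16% of all genes, and 10 of them were among the 14.

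Cells in PS medium plus Dox differed from untreated cells in 20 transporters (34.5%), 8 higher and 12 lower, beside 30.3% of all genes, 15.3% higher and 14.9% lower. The changes of at least 1.5-fold numbered 12, 3 higher (SLC7A2, SLC7A3 and SLC43A2) and 9 lower, 20.7% of the transporters beside 11.7% of all genes, 5.86% higher and 5.83% lower. All 3 comparisons share groups with one another, so their calls are not separate evidence. Together they called 28 of the 58 genes at least once, 17 of these with 1.5-fold or more, and 30 in none. The share of all genes called at least once was not counted, so these numbers have no background beside them. A gene was taken as dim where its highest group mean lay under 156, the 95th percentile of the highest group means of 341 olfactory receptor genes. Of 18 dim transporters 17 were called in no comparison, the exception being SLC1A2. Where the lower group of a call lay under this limit, the fold is also given against the limit, as at least so many fold. Where the limit leaves no fold to state, this is said.

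**Figure D1:**
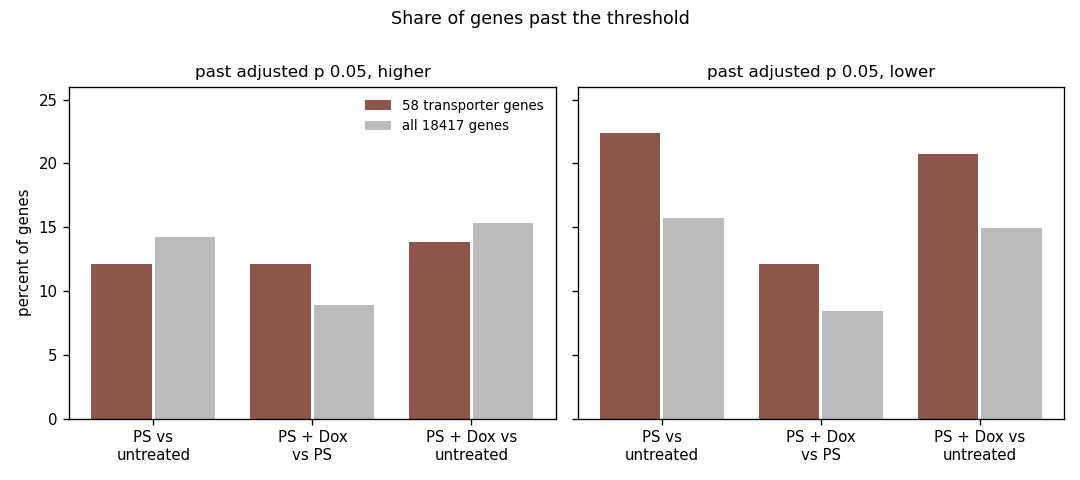
Percent of genes (y axis) past an adjusted p of 0.05 in each of the 3 comparisons, higher on the left and lower on the right, for the 58 transporter genes and for all 18417 genes; bars start at 0 and have no error. Lower calls made up 22.4% of the transporters and 15.7% of all genes for PS medium against untreated, while the higher calls were 12.1% and 14.2%.

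**Figure D2:**
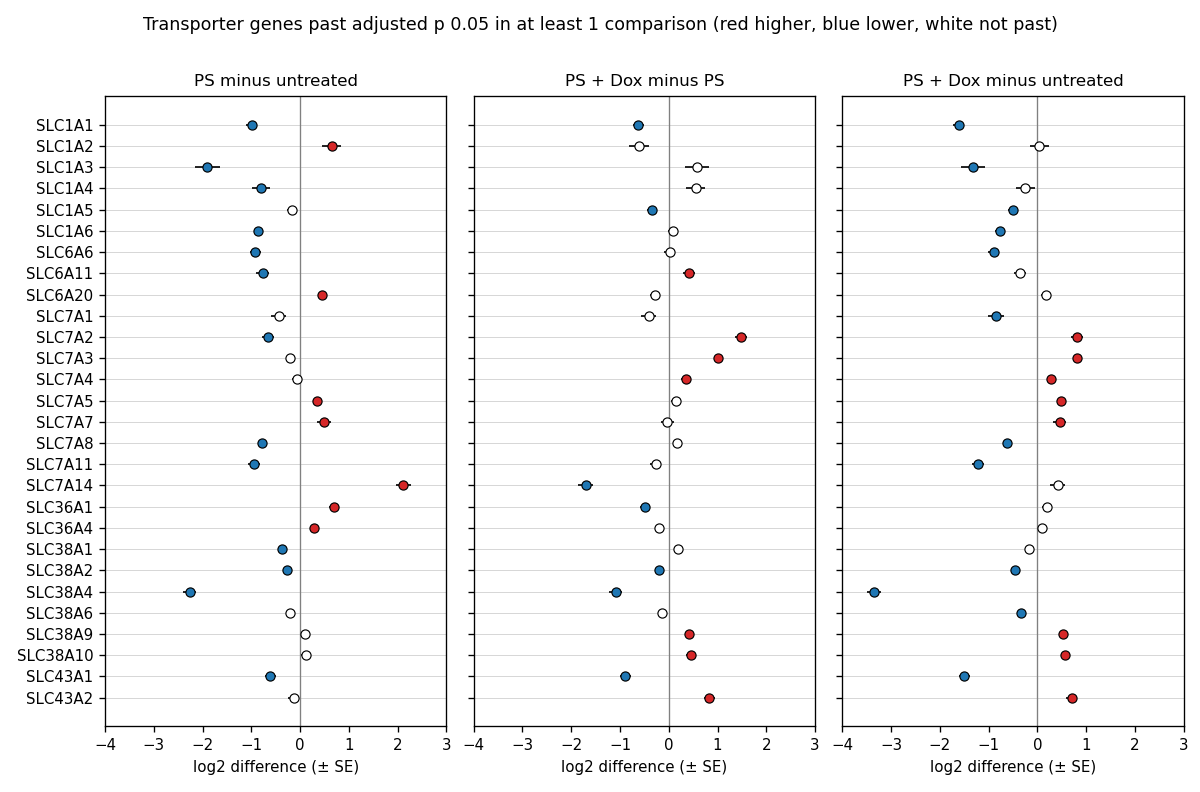
Log2 differences (x axis, points with SE bars) of the 28 transporter genes called at least once, in the 3 comparisons, with red for higher, blue for lower and white for not past an adjusted p of 0.05. SLC38A4 lies farthest left in both comparisons with untreated cells, and SLC7A14 changes side from 2.12 in PS medium against untreated to -1.71 with doxycycline against PS medium.

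The cationic carrier branch of SLC7 was the class with the widest range of differences under doxycycline, from -1.71 to 1.48 over its 5 genes. Of these, 3 rose and 1 fell against PS medium, beside 8.91% of all genes called higher and 8.44% lower. SLC7A3 (CAT3), an arginine and lysine carrier, read 4329, 4623 and 4747 untreated, 3923, 4446 and 3715 in PS medium, and 7829, 7102 and 9199.9 with doxycycline. Every doxycycline array was above every other array, while untreated and PS medium arrays overlapped. The increase over PS medium was 1.02 ± 0.09 (log2, SE, n = 3 per group; 2.02-fold, adjusted p = 3.47e-05), and over untreated cells 0.82 (adjusted p = 7.35e-05). PS medium differed from untreated by -0.20 ± 0.09, which did not pass (adjusted p = 0.135).

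SLC7A2 (CAT2), which also carries arginine and lysine, read 757, 778 and 752 untreated, 477, 556 and 429 in PS medium, and 1444, 1175 and 1555 with doxycycline. None of the groups overlapped. It fell by 0.66 ± 0.12 in PS medium (1.58-fold, adjusted p = 0.00186), then was 2.79-fold higher with doxycycline than without (1.48 ± 0.12, adjusted p = 1.91e-05) and 1.76-fold higher than in untreated cells (adjusted p = 0.000484). Without Dox replicate 3 the differences from PS medium were 1.39 for SLC7A2 and 0.92 for SLC7A3, both past the threshold.

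SLC7A1 (CAT1), the widely expressed member of the same branch, read 2015, 2057 and 1742 untreated, 1265, 1621 and 1479 in PS medium, and 1190.0, 1314 and 797 with doxycycline. Its doxycycline arrays lay below all untreated arrays and overlapped PS medium. From untreated cells to doxycycline it fell by 0.85 ± 0.16 (1.81-fold, adjusted p = 0.00206), a difference of -0.64 without Dox replicate 3 (adjusted p = 0.00138). Against PS medium the difference of -0.42 did not pass (adjusted p = 0.106), but it did with the replicate block (adjusted p = 0.0351) and without Dox replicate 2 (adjusted p = 0.0444). For PS medium against untreated SLC7A1 gave -0.44 (adjusted p = 0.0601), which passed without Dox replicate 2 (adjusted p = 0.0412) or Dox replicate 3 (adjusted p = 0.0055).

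SLC7A14, a member of the branch found in lysosomes, had the largest rise of any transporter in PS medium. It read 193, 258 and 211 untreated, 1222, 865 and 942 in PS medium, and 302, 245 and 329 with doxycycline. All PS medium arrays stood above all others, and the doxycycline arrays overlapped the untreated ones. SLC7A14 was 4.34-fold higher in PS medium than in untreated cells (2.12 ± 0.16, adjusted p = 3.14e-06) and 3.26-fold lower with doxycycline than without (-1.71 ± 0.16, adjusted p = 3.56e-05). Doxycycline against untreated was 0.41 ± 0.16 (adjusted p = 0.0706), and this passed without untreated replicate 2 (adjusted p = 0.0353) or PS replicate 1 (adjusted p = 0.0395). A second, dimmer SLC7A14 probe set, at 37.7 to 76.4 over all arrays, had differences of 0.34 (adjusted p = 0.0982) and -0.25 (adjusted p = 0.276) that did not pass. SLC7A4, for which no carrier activity is known, was 0.35 higher with doxycycline than without (adjusted p = 0.0312) and 0.28 higher than in untreated cells (adjusted p = 0.0485). Leaving out 1 array ended the first SLC7A4 call for 5 of the 9 arrays (untreated replicate 2, PS replicates 1 and 3, Dox replicates 1 and 3, adjusted p 0.0507 to 0.121). The call against untreated cells ended for all arrays but PS replicate 3 and Dox replicate 2 (adjusted p 0.0544 to 0.17).

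**Figure D3:**
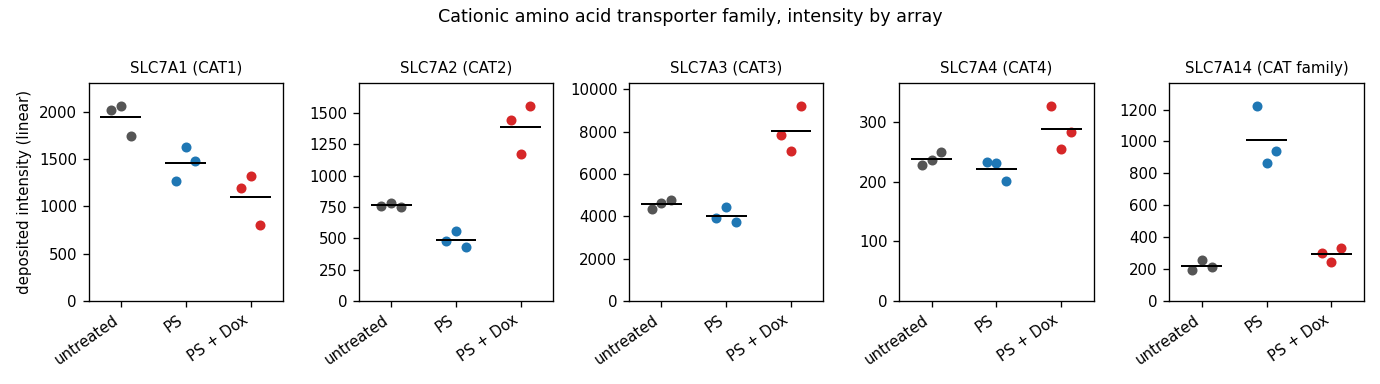
Deposited linear intensity (y axis) of the 5 cationic carrier genes in each array, with points for arrays and a line for the group mean, in untreated cells, PS medium and PS medium plus Dox. SLC7A2 and SLC7A3 are highest with doxycycline, SLC7A14 is highest in PS medium (865 to 1222), and SLC7A1 is highest in untreated cells.

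Among the exchangers, the heavy subunit SLC3A2 (4F2hc or CD98) passed in no comparison. For PS medium against untreated 4 of the 8 light subunits passed, 2 higher and 2 lower, beside 29.8% of all genes. SLC3A2 read 4153, 4349 and 3925 untreated, 4015, 4480.4 and 4045 in PS medium, and 4248, 4525 and 4267 with doxycycline. The groups overlapped, and its differences of -0.01, 0.08 and 0.08 (SE 0.06 each) did not pass (adjusted p 0.355 to 0.964). The other heavy subunit, SLC3A1, was near the dim limit at 128 to 176 and passed in no comparison.

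SLC7A5 (LAT1), which imports large neutral amino acids such as leucine, read 3924, 4287 and 3702 untreated, 4475, 5814 and 5139 in PS medium, and 5376, 5865 and 5421 with doxycycline. All arrays in PS medium, with or without doxycycline, were above all untreated arrays. SLC7A5 was higher by 0.35 ± 0.09 in PS medium (1.28-fold, adjusted p = 0.0122) and by 0.49 ± 0.09 with doxycycline (1.41-fold, adjusted p = 0.0018) than in untreated cells. The first of these calls was lost without untreated replicate 3 (adjusted p = 0.051).

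SLC7A11 (xCT), which imports cystine in exchange for glutamate and so feeds glutathione synthesis, went the other way. It read 1217, 1238 and 1138 untreated, 513, 644 and 727 in PS medium, and 518, 457 and 581 with doxycycline. Untreated arrays were above all others, and the 2 groups in PS medium overlapped. The fall was 0.95 ± 0.12 in PS medium (1.93-fold, adjusted p = 0.000131) and 1.22 ± 0.12 with doxycycline (2.33-fold, adjusted p = 2.31e-05), and doxycycline against PS medium gave -0.27 (adjusted p = 0.155), which passed without PS replicate 1 (adjusted p = 0.0365).

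SLC7A8 (LAT2), another neutral exchanger, was 4083 to 4500.2 untreated and fell to 2301 to 2686 in PS medium (-0.78 ± 0.07, 1.72-fold, adjusted p = 1.34e-05). With doxycycline it was 2639.7 to 2951, still below untreated (-0.62, 1.53-fold, adjusted p = 8.02e-05).

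SLC7A7 (y+LAT1), which exchanges basic for neutral amino acids, was higher than untreated by 0.49 in PS medium (adjusted p = 0.0194) and by 0.46 with doxycycline (adjusted p = 0.0267). Both SLC7A7 calls were lost without untreated replicate 1 (adjusted p = 0.0847 and 0.112), and the second also without Dox replicate 2 (adjusted p = 0.0895). Its relative SLC7A6 (y+LAT2) gave -0.38 with doxycycline against PS medium (adjusted p = 0.0584), which passed with the replicate block (adjusted p = 0.0185) and without PS replicate 1 (adjusted p = 0.0372) or Dox replicate 2 (adjusted p = 0.0282). Against untreated SLC7A6 gave -0.35 (adjusted p = 0.0514), which passed with the block (adjusted p = 0.017) and without untreated replicate 3 (adjusted p = 0.0313), PS replicate 1 (adjusted p = 0.044) or Dox replicate 2 (adjusted p = 0.0233). SLC7A10 (asc-1) was at -0.26 against untreated (adjusted p = 0.0549), past the threshold with the block (adjusted p = 0.0352), without untreated replicate 1 (adjusted p = 0.0265) or without Dox replicate 3 (adjusted p = 0.0302). With all 9 arrays and no block, none of the 8 light subunits passed between doxycycline and PS medium, beside 17.4% of all genes. SLC7A9 and the dim SLC7A13 passed in no comparison.

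**Figure D4:**
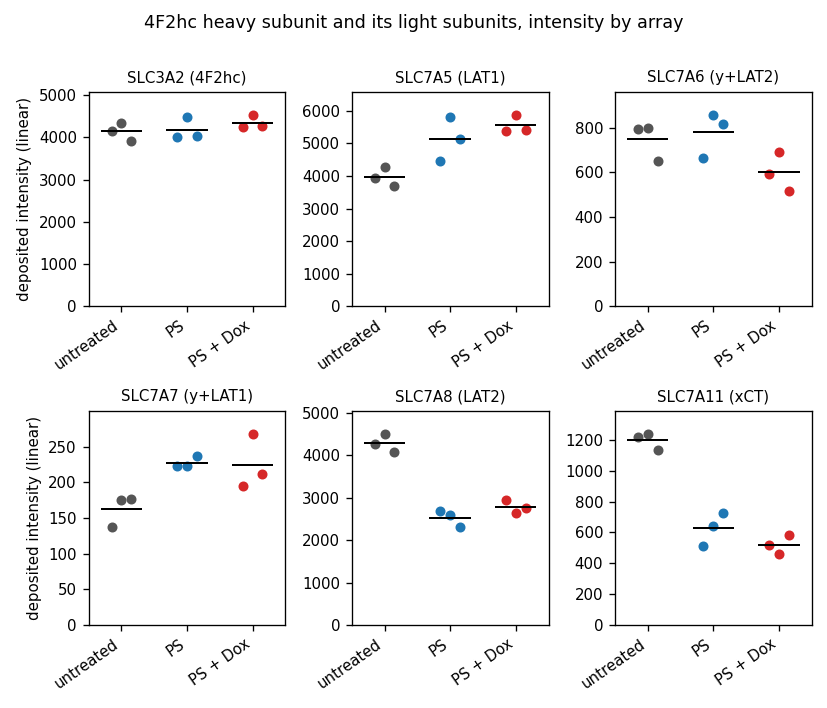
Deposited linear intensity (y axis) of SLC3A2 and 5 of its light subunits in each array, with points for arrays and a line for the group mean. SLC3A2 stays between 3925 and 4525 in all arrays, SLC7A5 is higher and SLC7A8 and SLC7A11 are lower in both groups in PS medium than in untreated cells.

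All 3 system A carriers fell in PS medium, by unequal amounts, beside 15.7% of all genes called lower. SLC38A4 (SNAT4), which also takes cationic amino acids, read 791, 842 and 764 untreated, 163, 189.9 and 118 in PS medium, and 69.9, 62.9 and 59.3 with doxycycline. The 3 groups were fully separated, and the doxycycline arrays lay in the dim range. SLC38A4 fell by 2.27 ± 0.14 in PS medium (4.81-fold, adjusted p = 7.80e-07) and by a further 1.09 ± 0.14 with doxycycline (2.12-fold, adjusted p = 0.000313). From untreated to doxycycline the measured fall was 10.2-fold (-3.35 ± 0.14, adjusted p = 5.18e-08). Since all doxycycline arrays lay under the dim limit, that fall can be stated as at least 4.82-fold, and the step from PS medium, itself near the limit, has no fold that can be stated against it.

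SLC38A2 (SNAT2), the system A carrier that cells raise when amino acids run short, read 6268, 6657 and 6126 untreated, 5668, 5433 and 4975 in PS medium, and 4729, 4450.3 and 4661 with doxycycline. Its groups did not overlap, though the steps were small: it fell by 0.27 ± 0.05 in PS medium (1.21-fold, adjusted p = 0.0032) and by 0.19 ± 0.05 more with doxycycline (1.14-fold, adjusted p = 0.0349). The second of these calls was lost without untreated replicate 1, PS replicate 1 or 2, or Dox replicate 2 or 3 (adjusted p 0.0551 to 0.129). The fall from untreated to doxycycline was 0.46 (1.38-fold, adjusted p = 0.000102).

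SLC38A1 (SNAT1) was 4862 to 5684 untreated, 3691 to 4402 in PS medium and 4459.7 to 4662 with doxycycline. It fell by 0.37 ± 0.07 in PS medium (1.3-fold, adjusted p = 0.00219). With doxycycline it was 0.19 above PS medium and 0.18 below untreated, and neither passed (adjusted p = 0.0957 and 0.0734), though both did with the replicate block (adjusted p = 0.0303 and 0.0235). The first also passed without PS replicate 2 (adjusted p = 0.0462), and the second in a fit of its 2 groups alone (adjusted p = 0.0438) and without untreated replicate 3 (adjusted p = 0.0499) or PS replicate 3 (adjusted p = 0.0362). In this chromosome 12 cluster SLC38A2 and SLC38A4 were lower with doxycycline than without it, and SLC38A1 was not called lower. Differences between genes were not tested.

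Outside system A, 3 of the 9 remaining SLC38 carriers passed with doxycycline against untreated, 2 higher and 1 lower, beside 30.3% of all genes. SLC38A9, the lysosomal protein that reports arginine to mTORC1, was 641 to 745 untreated, 729 to 769 in PS medium and 962 to 1063 with doxycycline. It rose by 0.42 ± 0.07 with doxycycline over PS medium (1.34-fold, adjusted p = 0.00262), with no overlap. SLC38A10 rose by 0.45 ± 0.09 in the same comparison (1.36-fold, adjusted p = 0.0064), and both were also higher than in untreated cells. Over untreated cells SLC38A10 was 1.48-fold higher, and 1.55-fold without Dox replicate 3 (adjusted p = 0.00109), past the 1.5-fold rule. SLC38A6 was lower with doxycycline than in untreated cells by 0.33 (adjusted p = 0.0113). The system N carriers SLC38A3 and SLC38A5, and SLC38A7, SLC38A8, SLC38A11 and SLC38A12, passed in no comparison.

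The SLC43 carriers LAT3 and LAT4 let large neutral amino acids move down their gradient without exchange, and doxycycline moved them in opposite directions. SLC43A1 (LAT3) read 1035, 1009.8 and 977 untreated, 639.9, 708 and 659 in PS medium, and 409, 384 and 279 with doxycycline. Its groups did not overlap. It fell by 0.61 ± 0.12 in PS medium (1.52-fold, adjusted p = 0.0029) and by 0.89 ± 0.12 more with doxycycline (1.85-fold, adjusted p = 0.00046), or by 0.73 without Dox replicate 3 (adjusted p = 0.000175). SLC43A2 (LAT4) read 755, 769.9 and 639.6 untreated, 668, 776 and 576 in PS medium, and 1177, 1299.6 and 1141 with doxycycline. The first 2 groups overlapped and the doxycycline arrays were above both. SLC43A2 was higher with doxycycline by 0.83 ± 0.11 than in PS medium (1.78-fold, adjusted p = 0.000489) and by 0.71 than in untreated cells (1.63-fold, adjusted p = 0.000823).

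**Figure D5:**
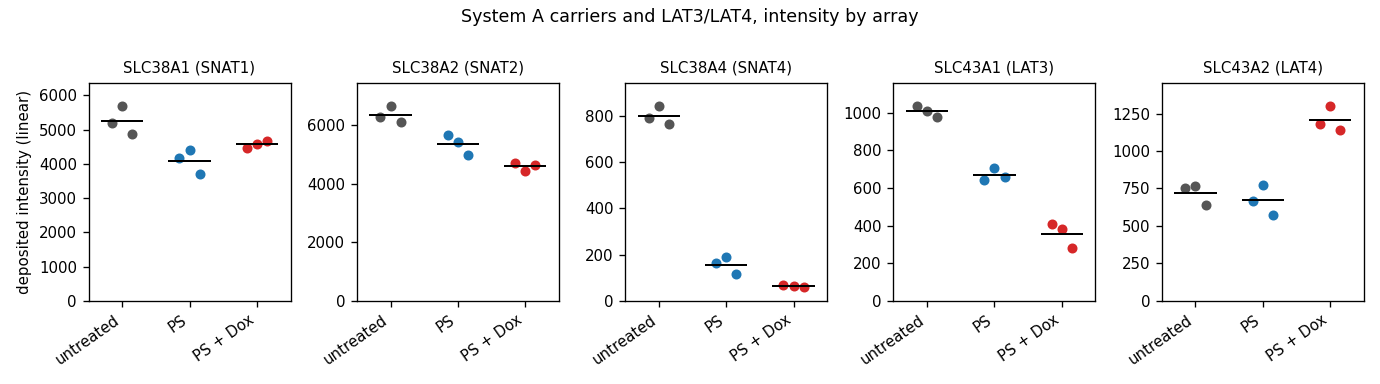
Deposited linear intensity (y axis) of the system A carriers SLC38A1, SLC38A2 and SLC38A4 and of SLC43A1 and SLC43A2 in each array, with points for arrays and a line for the group mean. SLC38A4 and SLC43A1 step down from untreated to PS medium to PS medium plus Dox, and SLC43A2 is highest with doxycycline (1141 to 1299.6).

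In the SLC1 family, 3 of 5 glutamate carriers were called lower and 1 higher in PS medium than untreated. Over all genes 15.7% were called lower and 14.2% higher. SLC1A3 (EAAT1), a glutamate and aspartate carrier, read 780.4, 846 and 477 untreated, 197, 226 and 108 in PS medium, and 261, 259 and 271 with doxycycline. No groups overlapped, and replicate 3 was the lowest array of both the untreated and the PS medium group. Relative to untreated cells SLC1A3 was 3.73-fold lower in PS medium (-1.90 ± 0.25, adjusted p = 0.000193) and 2.51-fold lower with doxycycline (-1.33 ± 0.25, adjusted p = 0.00216). Doxycycline against PS medium gave 0.57 ± 0.25 (adjusted p = 0.156), which passed with the replicate block (adjusted p = 0.0351).

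SLC1A1 (EAAT3), which carries glutamate, aspartate and cysteine, read 424, 431 and 389.8 untreated, 184, 195 and 220.2 in PS medium, and 146, 117 and 108 with doxycycline. The groups stepped down with no overlap. It fell by 1.00 ± 0.11 in PS medium (1.99-fold, adjusted p = 5.69e-05) and by 0.62 ± 0.11 more with doxycycline (1.54-fold, adjusted p = 0.00255), to 3.07-fold below untreated (adjusted p = 1.83e-06). Its doxycycline arrays lay under the dim limit, against which these falls were at least 1.26-fold from PS medium and at least 2.52-fold from untreated cells. Without Dox replicate 3 the measured fall from PS medium was 1.44-fold (adjusted p = 0.00765), short of the 1.5-fold rule. SLC1A6 (EAAT4) was 440.3 to 528 untreated, 243 to 276 in PS medium and 257 to 299 with doxycycline. It was lower in both than in untreated cells (-0.85 ± 0.10, 1.81-fold, adjusted p = 8.32e-05, and -0.76 ± 0.10, adjusted p = 0.000203).

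SLC1A2 (EAAT2), a glial glutamate carrier, was dim, and its rise of 0.65 ± 0.20 in PS medium (1.57-fold, adjusted p = 0.0295) rested largely on PS replicate 3. It read 61.9, 60.2 and 67 untreated, 87.4, 83.9 and 158 in PS medium, and 61.2, 74.5 and 54.6 with doxycycline. All untreated arrays lay under the dim limit, and the rise has no fold that can be stated against it. Without PS replicate 3 the rise was 0.38 (adjusted p = 0.0496), and without untreated replicate 1, 2 or 3 the call was lost (adjusted p = 0.0896, 0.0728 and 0.0639). Doxycycline against PS medium gave -0.61 (adjusted p = 0.0592), which passed with the block (adjusted p = 0.0497) and without PS replicate 1 (adjusted p = 0.0441), PS replicate 2 (adjusted p = 0.0399) or Dox replicate 2 (adjusted p = 0.0411). SLC1A7 (EAAT5) was dim and passed in no comparison.

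The neutral exchangers of the family differed from one another. SLC1A5 (ASCT2), a main route for glutamine, read 2475, 2598 and 2259 untreated, 2153, 2426 and 2081 in PS medium, and 1787, 1926 and 1447 with doxycycline. Untreated and PS medium arrays overlapped (-0.16, adjusted p = 0.279), and the doxycycline arrays were below both. SLC1A5 was lower with doxycycline than in untreated cells by 0.51 ± 0.10 (1.43-fold, adjusted p = 0.00297) and than in PS medium by 0.35 ± 0.10 (1.27-fold, adjusted p = 0.036). This last call was lost without untreated replicate 1, PS replicate 1 or 2, or Dox replicate 1 or 3 (adjusted p 0.0579 to 0.113). A second SLC1A5 probe set had differences of -0.26 and -0.29 against PS medium and untreated cells, neither of which passed (adjusted p = 0.288 and 0.166). SLC1A4 (ASCT1), which exchanges alanine, serine and cysteine, read 148 to 173 untreated, 65.7 to 105 in PS medium and 93.8 to 156 with doxycycline. It fell by 0.80 ± 0.19 in PS medium (1.74-fold, adjusted p = 0.00947), where all arrays were under the dim limit, with untreated cells themselves close to it. This fall of SLC1A4 therefore has no fold that can be stated against the limit. The difference of 0.55 with doxycycline did not pass (adjusted p = 0.0784) except with the block (adjusted p = 0.0173), without PS replicate 2 (adjusted p = 0.0319) or without Dox replicate 3 (0.76, adjusted p = 0.0134).

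Both SLC36 carriers above the dim limit, of 4 in this proton-coupled family, rose in PS medium, beside 14.2% of all genes called higher. SLC36A1 (PAT1), which moves small amino acids such as proline and glycine out of lysosomes, was 553 to 667 untreated, 937 to 1215 in PS medium and 698 to 766 with doxycycline. The PS medium arrays were above all others, a rise of 0.70 ± 0.10 over untreated (1.62-fold, adjusted p = 0.000455) and a fall of 0.49 ± 0.10 with doxycycline (1.41-fold, adjusted p = 0.00678). SLC36A4 (PAT4) was 0.29 ± 0.07 higher in PS medium than untreated (1.22-fold, adjusted p = 0.0132), a call lost without untreated replicate 1 (adjusted p = 0.0647). With doxycycline SLC36A4 was 0.20 lower than in PS medium (adjusted p = 0.0904), which passed with the block (adjusted p = 0.0332) or without Dox replicate 3 (adjusted p = 0.0383). SLC36A2 and SLC36A3, neighbours of SLC36A1 on chromosome 5, were dim and passed in no comparison. With the block SLC36A2 passed for PS medium against untreated (0.31, adjusted p = 0.0453).

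Of the 18 SLC6 carriers 10 were dim, and 15 did not pass between PS medium and untreated cells. The others were 1 called higher and 2 called lower, while 29.8% of all genes passed in either direction. SLC6 proteins use sodium and chloride to move neurotransmitters, taurine, creatine or amino acids, and the symbol rule also takes in the monoamine carriers SLC6A2, SLC6A3 and SLC6A4, none of which passed. SLC6A6, the taurine carrier, was 2236 to 2589.6 untreated and fell to 1199.6 to 1403 in PS medium (-0.92 ± 0.12, 1.89-fold, adjusted p = 0.000161). It remained at 1120.1 to 1534 with doxycycline (-0.90 against untreated, 1.86-fold, adjusted p = 0.000199). The GABA carrier SLC6A11 (GAT3) was 203 to 220.5 untreated, 96 to 136 in PS medium and 144 to 165 with doxycycline. It fell by 0.77 ± 0.12 in PS medium (1.7-fold, adjusted p = 0.00087) and was 0.41 ± 0.12 higher with doxycycline than without (1.33-fold, adjusted p = 0.0439). The PS medium arrays of SLC6A11 were under the dim limit. Against it the fall from untreated cells was at least 1.29-fold and the rise with doxycycline at least 1.01-fold. The rise with doxycycline, to values close to the limit, was lost without any 1 of the arrays other than PS replicate 2 (adjusted p 0.0502 to 0.152). Against untreated cells doxycycline gave -0.35 for SLC6A11 (adjusted p = 0.0541), which passed with the block (adjusted p = 0.0162) and without PS replicate 1 (adjusted p = 0.0283), PS replicate 2 (adjusted p = 0.0234) or Dox replicate 2 (adjusted p = 0.0491).

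SLC6A20, a proline carrier, was the only SLC6 gene called higher in PS medium than untreated, at 292 to 299 against 201 to 235 (0.45 ± 0.09, 1.37-fold, adjusted p = 0.00371). With doxycycline it was 0.29 lower than in PS medium (adjusted p = 0.058), which passed with the block (adjusted p = 0.0295) or without Dox replicate 3 (adjusted p = 0.0227). The creatine carrier SLC6A8 and the branched-chain amino acid and proline carrier SLC6A15 gave -0.21 and -0.42 with doxycycline against untreated (adjusted p = 0.0625 and 0.105), both past the threshold with the replicate block (adjusted p = 0.00997 and 0.0262). SLC6A8 also passed without PS replicate 2 (adjusted p = 0.0397) or Dox replicate 2 (adjusted p = 0.0317). The dim SLC6A14 gave -0.26 there (adjusted p = 0.0577, with 0.0432 under the block and 0.0442 without PS replicate 1). The glycine carriers SLC6A5 and SLC6A9 passed in no comparison.

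Genes that handle or sense amino acids were also counted. Their counts stand beside calls of 14.2% higher and 15.7% lower over all genes for PS medium against untreated, 8.91% and 8.44% for doxycycline against PS medium, and 15.3% and 14.9% for doxycycline against untreated. Of 20 other amino acid or peptide carriers, 2 were higher (10%) and 5 lower (25%) in PS medium than untreated, and 5 higher and 2 lower with doxycycline than in PS medium. Against untreated cells, 2 were higher (10%) and 5 lower (25%) with doxycycline. The peptide carriers SLC15A3, SLC15A1 and SLC15A2 fell in PS medium by 1.64 ± 0.12, 1.21 ± 0.15 and 1.05 ± 0.11. SLC15A1 then was 1.17 ± 0.15 and SLC15A2 0.49 ± 0.11 higher with doxycycline than without, while SLC15A3 was 0.40 lower (adjusted p = 0.00041, 0.0111 and 0.0436).

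Of 25 measured genes that report amino acids to mTORC1, 3 were higher (12%) and 7 lower (28%) in PS medium than untreated, and 2 were higher (8%) and none lower with doxycycline than in PS medium. Against untreated cells, 6 were higher (24%) and 3 lower (12%) with doxycycline. SESN3, a sestrin, fell by 1.06 ± 0.12 in PS medium and was 3.32-fold higher with doxycycline than without (1.73 ± 0.12, adjusted p = 5.88e-06). RRAGB, a Rag GTPase that recruits mTORC1 to lysosomes, was 0.90 ± 0.14 higher in PS medium than untreated (adjusted p = 0.000571), and its relative RRAGD was 0.60 ± 0.14 lower (adjusted p = 0.00899).

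Amino acid metabolism had 10 of 20 measured genes lower (50%) and 2 higher (10%) in PS medium than untreated, and 4 lower (20%) and 3 higher (15%) with doxycycline than in PS medium. Against untreated cells, 11 were lower (55%) and 2 higher (10%) with doxycycline. BCAT2, the mitochondrial branched-chain aminotransferase, fell by 1.18 ± 0.20 and was 1.13 ± 0.20 higher with doxycycline (adjusted p = 0.00129 and 0.00294). GLDC, of the glycine cleavage system, fell by 0.99 ± 0.12 in PS medium, and SHMT1, which interconverts serine and glycine, rose by 0.81 ± 0.14. PSAT1, of serine synthesis, was 1.7-fold lower with doxycycline than in PS medium (-0.77 ± 0.06, adjusted p = 1.62e-05).

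The amino acid stress response, which ATF4 directs and which raises several of these carriers, had 1 of 10 genes higher (10%) and 2 lower (20%) in PS medium than untreated. With doxycycline none was higher and 2 were lower than in PS medium, and none was higher and 6 were lower (60%) than in untreated cells. EIF2AK4, the kinase GCN2 that senses uncharged tRNA, fell by 1.21 ± 0.07 in PS medium (2.32-fold, adjusted p = 3.65e-07). CHAC1, a glutathione-degrading target of ATF4, was 0.99 ± 0.23 lower with doxycycline than in PS medium (1.98-fold, adjusted p = 0.0119) and 3-fold lower than in untreated cells (adjusted p = 0.000395). The median log2 difference of these 10 genes with doxycycline against untreated was -0.31, beside 0.00 over all genes. It was -0.27 for doxycycline against PS medium and 0.01 for PS medium against untreated, beside 0.00 and -0.01.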

How the data were processed

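RNA from 9 samples, 3 per group, was hybridised to whole-transcript arrays, 1 array per sample. The authors deposited 1 linear intensity per probe set, made with Affymetrix Expression Console 1.1.1 and PLIER 2.0 per the submitters' processing notes; its background correction and normalization: not given in the sources used here. Of 33297 probe sets, 19460 had 1 symbol (19429 matched to RefSeq, GRCh38.p14, by gene number), 1754 several and 12083 none.

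Values were taken as log2(intensity + 16) and quantile-normalized over all probe sets, with the brightest probe set per gene kept. The 3 group means were fitted in limma 3.58.1 (R 4.3.3; lmFit, eBayes with a trend, 6 residual degrees of freedom), with Benjamini-Hochberg adjustment over 18417 genes and a threshold of 0.05. The R package data.table (version 1.17.8), Python 3.11.15 and matplotlib 3.10.9 were also used. The procedure was tested on simulated data. The number of arrays limits the precision.

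Named with values were all transporters past the threshold with at least 1.5-fold change. The value of every array was given for the 4 largest changes per comparison and for SLC3A2, SLC7A5, SLC1A5, SLC7A11, SLC38A2, SLC7A1 and SLC7A3, and up to 4 genes per related list and comparison were candidates for naming; others were named for their family. Members and lists were chosen with earlier results of these data known. SLC38A12 was given its class after its values were seen.

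Deviations of same-numbered arrays from their group means correlated at 0.245, 0.428 and 0.246 (doxycycline and PS medium) and 0.246, 0.309 and 0.297 (doxycycline and untreated), all over 0.1, so for both comparisons, from the data and not from the labels, a fit with the number as a block is given as an alternative to the reported values, which have no block. Alternatives were the log offset, normalization, probe set choice, a filter on dim genes, the replicate block, fits of 2 groups, eBayes without a trend, and leaving out each array.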

Additional observations from a re-analysis of the deposited data

How the results depend on the processing

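No called difference changed direction under any alternative run; 9 uncalled ones, the largest of them 0.0632 in size on the log2 scale as reported, took the other sign in at least 1 alternative. The counts of called members stayed within 1.5 times the main count except with the replicate block for PS medium plus Dox against PS medium, where 22 members passed in place of 14, all 14 among them, while the share of all genes rose from 17.4% to 24.3%. For PS medium against untreated, same-numbered arrays correlated at 0.0856, 0.397 and 0.271, not all over 0.1. The block fit nevertheless spans all 9 arrays and treats the numbers as shared by the 3 groups. For this comparison the block gave 26 in place of 20 (37.7% of all genes in place of 29.8%). It added SLC1A5, SLC36A2, SLC6A8, SLC6A15, SLC7A1 and SLC7A10 (adjusted p 0.00864 to 0.0453). For PS medium plus Dox against untreated the block gave 27 in place of 20 (38.3% in place of 30.3%). Leaving out each array in turn gave 18 to 22 members for PS medium against untreated, beside 22.6% to 30.6% of all genes. It gave 11 to 15 for PS medium plus Dox against PS medium, beside 13.1% to 16.7% of all genes. For PS medium plus Dox against untreated it gave 19 to 23, beside 22.6% to 32.7%. Fits of the compared groups alone gave 22, 10 and 27, beside 29.6%, 13.3% and 31.6% of all genes. Single genes were followed for 35 genes, those called at least once and SLC3A1, SLC3A2, SLC6A8, SLC6A14, SLC6A15, SLC7A6 and SLC7A10. Of their 54 calls, 10 were lost in at least 1 of 18 alternatives. They were those of SLC1A2, SLC7A5, SLC7A7 and SLC36A4 (PS medium against untreated), SLC1A5, SLC38A2, SLC6A11 and SLC7A4 (PS medium plus Dox against PS medium), and SLC7A4 and SLC7A7 (PS medium plus Dox against untreated). The cause of these changes was not tested. Another 22 differences of these 35 genes passed in at least 1 alternative only. The remaining transporters, SLC36A2 among them, were not counted here. The dim limit bounds what can be seen of 18 genes, whose signal is close to that of olfactory receptor probe sets.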

Other observations

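Some transporters that passed in no comparison varied with the replicate number and not with the group; these genes were picked after their values were seen. SLC38A5 (SNAT5, system N) read 446, 572 and 317 in untreated replicates 1, 2 and 3, 422, 625 and 288 in PS medium, and 448, 538 and 305 with doxycycline, so that replicate 2 was the highest and replicate 3 the lowest of each group. SLC38A7, a lysosomal glutamine exporter, was also highest in replicate 2 of each group, at 431, 473 and 442. What the replicate numbers share is not given in the labels.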
